A study of Mus musculus with 6 samples.

Results

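Genes for the uptake, binding and activation of fatty acids were followed in microglia, the resident macrophages of the brain, that hold many or few lipid droplets. The 8 genes were chosen by name: the fatty acid translocase Cd36, the fatty acid-binding proteins Fabp3, Fabp4 and Fabp5, and the long-chain acyl-CoA synthetases Acsl1, Acsl3, Acsl4 and Acsl5. Of the 14148 genes listed in the deposited table, 7 are members, and Fabp4 was not analysed here. The table gives a normalized count, that is, the reads of a gene divided by a size factor for the library.

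The cells came from the hippocampi of C57BL/6 males aged 18 months, sorted as live CD11b+CD45lo cells, a usual gate for microglia, and then by BODIPY, a dye for neutral lipid. The LD-high group (lipid droplet-high, bright for BODIPY) and the LD-low group (lipid droplet-low, dim for BODIPY) had 3 libraries each. Every library pooled the hippocampi of 3 mice and about 10000 sorted cells. No young mice are among these groups, so age was the same on both sides of the comparison.

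Long-chain fatty acids enter cells partly through CD36, a membrane glycoprotein that also binds oxidized lipoproteins and is used by macrophages as a scavenger receptor. Inside the cell, fatty acid-binding proteins carry the insoluble acids through the cytosol, and acyl-CoA synthetases couple them to coenzyme A, the step that lets them enter triglycerides, membrane lipids or beta-oxidation. Several genes of this route, Cd36 and Acsl1 among them, are known targets of the lipid-sensing PPAR receptors. In brain, FABP5 and FABP3 are known from glia and neurons, and FABP4 is known from adipocytes and macrophages.

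Libraries held 15895576 to 38489448 reads in genes. Microglial markers were abundant in both groups: the 10 markers fixed for microglia summed to 1546511 to 1757555 normalized counts in LD-high libraries and 1577706 to 1842810 in LD-low libraries. Of 11624 genes tested with limma on log2(normalized count + 1), 390 passed the Benjamini-Hochberg threshold of 0.05, or 3.36%. Of these, 178 were higher (1.53% of all genes tested) and 212 lower (1.82%) in LD-high libraries, and with equal library totals the split was 118 higher and 233 lower. In pools of sorted cells, fewer cells of a type and less RNA per cell cannot be told apart, and this holds for every level below.

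The members lie on 7 chromosomes of the mm9 build (GENCODE vM1 annotation), and all are protein-coding. Cd36 spans chromosome 5, 17287508 to 17394777 on the minus strand, and Acsl5 spans chromosome 19, 55327859 to 55371117 on the plus strand. Acsl1 lies on chromosome 8 (47556395 to 47621405), Acsl3 on chromosome 1 (78654400 to 78703562) and Acsl4 on chromosome X (138752536 to 138825078). Fabp5 lies on chromosome 3 (10012548 to 10016607), where Fabp4 also lies (10204347 to 10208576), and Fabp3 on chromosome 4 (129985839 to 129992707). The RefSeq promoter table (GRCm38.p6, 250 bases before to 50 after a start) held 7 promoters of 6 members. Those of Cd36 (chr5:17835847-17836146, minus strand) and Acsl5 (chr19:55253119-55253418, plus strand) are shown, 5′ to 3′, as the promoter of the member with the larger difference among those with a promoter entry and that of the most abundant member. Capitals mark AGGTCA, the half-site read by PPAR and other nuclear receptors, and GGGCGG, the GC box, each searched on both strands.
Cd36: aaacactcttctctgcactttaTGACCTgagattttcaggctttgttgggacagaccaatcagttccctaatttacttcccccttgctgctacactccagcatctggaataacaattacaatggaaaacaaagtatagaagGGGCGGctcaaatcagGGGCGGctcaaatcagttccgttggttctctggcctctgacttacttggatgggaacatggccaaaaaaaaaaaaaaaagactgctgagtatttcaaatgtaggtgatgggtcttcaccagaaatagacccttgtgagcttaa
Acsl5: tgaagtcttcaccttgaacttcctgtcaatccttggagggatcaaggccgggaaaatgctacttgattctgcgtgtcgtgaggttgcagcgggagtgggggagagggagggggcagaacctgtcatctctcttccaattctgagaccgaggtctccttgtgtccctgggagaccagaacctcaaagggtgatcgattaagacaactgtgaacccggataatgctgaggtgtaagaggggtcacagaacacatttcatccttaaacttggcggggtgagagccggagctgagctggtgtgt
The Cd36 promoter held 1 AGGTCA match, written TGACCT on the strand shown and starting 228 bases before the start, and 2 GC boxes, which start 109 and 93 bases before it. None of the other 6 member promoters held AGGTCA, which 16.3% of all 32851 promoters in the table held. The GC box was found in 35.7% of all promoters, 5 times in that of Acsl3, 7 times in 1 of the 2 promoters of Acsl1 and not in that of Acsl5. These matches describe letters and not binding.

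The uptake receptor Cd36 was low in both fractions and lay lower in LD-high libraries, though not past the test. It had 36.5, 26.9 and 30.1 normalized counts in LD-high libraries (replicates 1, 2 and 3), against 56.8, 54.1 and 39.0 in LD-low libraries. The 3 LD-high values all lay below the 3 LD-low values, with the closest pair at 36.5 in LD-high replicate 1 and 39.0 in LD-low replicate 3. The means were 31.1 ± 4.9 in LD-high and 49.99 ± 9.61 in LD-low (SD, n = 3 each), which is a log2 change of -0.66 ± 0.33 (SE; 95% interval -1.35 to 0.04; limma adjusted p = 0.28). These values rest on 49, 24 and 18 reads in LD-high and 81, 50 and 42 reads in LD-low. Pooled within a group, reads gave 32.1 normalized counts in LD-high (exact Poisson 95% interval 25.8 to 39.4) and 50.5 in LD-low (43.3 to 58.6), intervals that cover counting error only.

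Fabp5, the fatty acid-binding protein first known from skin, was lower still and had the largest difference of the 6 tested members, again not past the test. It had 10.4, 6.72 and 8.35 normalized counts in LD-high libraries, against 18.2, 26.0 and 15.8 in LD-low libraries. No LD-high value reached the lowest LD-low value, and replicate 2 held both the lowest LD-high and the highest LD-low value. The means were 8.50 ± 1.86 in LD-high and 20.0 ± 5.3 in LD-low (SD, n = 3 each), which is a log2 change of -1.13 ± 0.53 (SE; 95% interval -2.27 to 0.00; limma adjusted p = 0.253). The reads behind them were 14, 6 and 5 in LD-high and 26, 24 and 17 in LD-low. Fabp5 met the filter of 10 normalized counts in 3 libraries through its LD-low libraries, since only 1 of the LD-high libraries reached 10, so a gene like this enters the test because one group is high.

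Fabp3, the fatty acid-binding protein best known from heart and muscle, was close to the floor set by 3 reads, which is 2.11 to 5.01 normalized counts depending on the library. It had 6.70, 13.4 and 5.01 normalized counts in LD-high libraries, against 8.42, 2.17 and 12.1 in LD-low libraries, and the groups overlapped. Only 2 of the 6 libraries reached 10, so it was not tested. Its means were 8.38 ± 4.46 in LD-high and 7.55 ± 5.01 in LD-low (SD, n = 3 each), from 24 reads in LD-high and 27 in LD-low.

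Reads of both binding-protein genes can fall on near-identical copies. The whole coding sequence of Fabp3 (402 bases) matched a pseudogene, Fabp3-ps1, on chromosome 10 (86194732 to 86195133) at 99.3% identity. The protein-coding gene BC030307 is annotated over the same stretch. The coding sequence of Fabp5 (408 bases) matched pseudogenes on chromosomes 9 and 18 at 98.3% and 97.3% identity. The copy on chromosome 18 also lies within the span of the protein-coding gene Ccdc11. A read that fits more than 1 place is not counted for a gene by STAR, so the levels of Fabp3 and Fabp5 are uncertain. None of the other 6 members, Fabp4 included, had a match of at least 100 bases at 95% identity elsewhere. Fabp3 also shares up to 81 exonic bases with genes on the opposite strand, Zcchc17 among them, and Acsl3 shares 140 with Utp14b on the same strand, and the libraries do not mark strand.

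**Figure D1:**
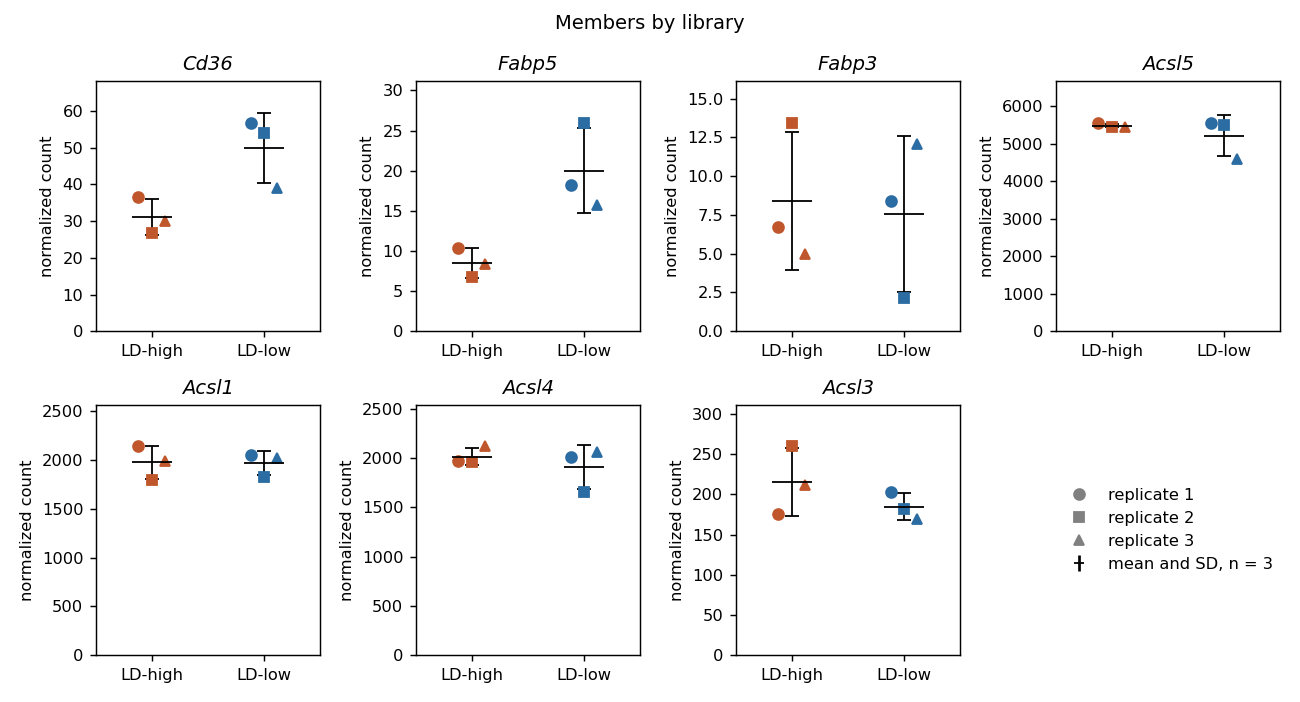
Normalized counts of the 7 listed members in each library, LD-high left of LD-low; symbols mark the replicate number, and the horizontal line and bars give the mean and SD (n = 3). Cd36 and Fabp5 lie lower in all 3 LD-high libraries, while the groups overlap for Fabp3 and the 4 synthetases.

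The activating enzymes were far more abundant than the carrier genes, and their levels lay close together in the 2 fractions. Acsl5, a synthetase of mitochondria and endoplasmic reticulum, had 5541, 5456 and 5450 normalized counts in LD-high libraries, against 5558, 5505 and 4580 in LD-low libraries. The LD-high values were almost equal, and only LD-low replicate 3 stood below the rest. Means were 5482 ± 51 in LD-high and 5214 ± 549.9 in LD-low (SD, n = 3 each), which is a log2 change of 0.08 ± 0.08 (SE; 95% interval -0.09 to 0.24; limma adjusted p = 0.619).

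Acsl1, the synthetase tied to both oxidation and triglyceride storage in liver and fat, had 2141, 1801 and 1995 normalized counts in LD-high libraries, against 2054, 1824 and 2025 in LD-low libraries. The values overlapped throughout, and replicate 2 was the lowest in both groups. The log2 change was 0.01 ± 0.08 (SE; limma adjusted p = 0.977), with a 95% interval of -0.17 to 0.19, that is, a fold between 0.887 and 1.14.

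Acsl4, which prefers arachidonic and other polyunsaturated acids, had 1973, 1956 and 2119 normalized counts in LD-high libraries, against 2009, 1653 and 2062 in LD-low libraries. LD-low replicate 2 was the lowest of all 6, and the other two LD-low values lay within the LD-high range. The log2 change was 0.09 ± 0.09 (SE; 95% interval -0.11 to 0.28; limma adjusted p = 0.642).

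Acsl3, a synthetase that moves to growing lipid droplets, was the least abundant of the 4 and the most variable in LD-high cells. It had 176, 259.8 and 212 normalized counts in LD-high libraries, against 203, 182 and 169.98 in LD-low libraries. LD-high replicates 2 and 3 exceeded every LD-low value, while LD-high replicate 1 lay among them. The log2 change was 0.21 ± 0.18 (SE; 95% interval -0.17 to 0.58; limma adjusted p = 0.543), the change was 0.07 without LD-high replicate 2, or 0.35 if replicate 1 of LD-high was left out instead, and the group means were 216 ± 42 in LD-high and 185 ± 17 in LD-low (SD, n = 3 each).

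Of the 6 members tested, 0 passed limma at an adjusted p of 0.05, against 3.36% of all genes tested, and 0 had an unadjusted p under 0.05, against 19.8% of all genes. On the recovered reads, edgeR called 0 members after adjustment, against 3.24% of all genes, and DESeq2 called 0, against 6.27%. At an unadjusted p under 0.05 edgeR had 1, Fabp5 with 0.0366, and DESeq2 had 0. Other settings of limma gave 0 to 2 of 6: equal library totals, no trend and sample weights gave 2, and TMM factors, a pseudocount of 5 and leaving out LD-low replicate 3 gave 1. Without a filter it was 1 of 7. At an unadjusted p, the share of all genes was taken for the main fit alone, where it was 19.8%. The counts under other settings and tools have no such share beside them and are not read as a result about the members. The LD-high and LD-low values did not overlap for 2 of the 6, Cd36 and Fabp5, against 24.3% of all genes tested and 11.7% for genes lower in LD-high. Fabp5 entered the test through its LD-low libraries, so its place in this count adds nothing to its values. The 95% intervals of Acsl1, Acsl4 and Acsl5 stay within 0.28 of 0 on the log2 scale, whereas those of Cd36 and Fabp5 reach from -1.35 and -2.27 up to about 0.

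**Figure D2:**
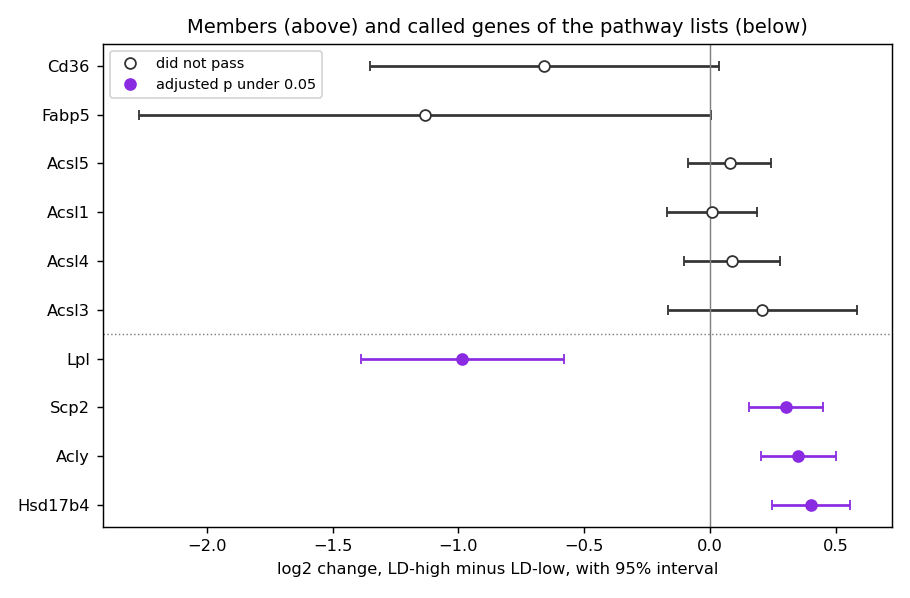
Log2 change of the normalized count, LD-high minus LD-low, with its 95% interval from limma, for the 6 tested members (above the dotted line) and for the 4 genes of the pathway lists with an adjusted p under 0.05 (below it). The intervals of Acsl1, Acsl4 and Acsl5 are narrow and span 0, those of Cd36 (-1.35 to 0.04) and Fabp5 (-2.27 to 0.00) are wide, and Lpl alone of the called genes lies below 0.

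Between genes, levels were compared per kilobase of the longest annotated coding transcript. Acsl5 stood first with 1740 ± 16 normalized counts per kb in LD-high and 1655 ± 175 in LD-low (SD, n = 3 each), above 92.7% of the genes with a length. Acsl1 followed with 508 ± 44 in LD-high and 505 ± 32 in LD-low, then Acsl4 with 382 ± 17 in LD-high and 361 ± 42 in LD-low. Acsl3 had 67.6 ± 13.2 per kb in LD-high and 57.9 ± 5.2 in LD-low, above 34.1% of these genes.

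On these transcript lengths, each of these steps was larger than the spread between libraries. The 6 library values of neighbouring genes did not overlap from Acsl5 down to Fabp5. The closest of these pairs was Acsl1 over Acsl4, with a ratio of 1.25 to 1.50 across the libraries. Below that, Fabp5 (8.61 ± 1.88 in LD-high, 20.3 ± 5.4 in LD-low), Cd36 (8.73 ± 1.37 in LD-high, 14.02 ± 2.69 in LD-low) and Fabp3 (10.2 ± 5.4 in LD-high, 9.18 ± 6.09 in LD-low) overlapped and could not be ordered, each above 20.7% to 23.2% of these genes. The order of Acsl1 and Acsl4 depends on the length used. Their transcripts have 3893 and 5280 bases, whereas all their exons together cover 9449 and 5405. On the exon lengths Acsl1 would stand below Acsl4. The transcript of Fabp5 has 987 bases and its exons together 3567.

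Within the ACSL family, Acsl5 made up 64.4% ± 0.8 of the summed level per kb in LD-high and 64.0% ± 3.7 in LD-low (SD, n = 3 each). Acsl1 made up 18.8% ± 1.3 in LD-high and 19.6% ± 1.7 in LD-low, and Acsl4 14.1% ± 0.6 in LD-high and 14.04% ± 2.02 in LD-low. Acsl3 held 2.51% ± 0.53 in LD-high and 2.24% ± 0.07 in LD-low, and Acsl6, a synthetase known from neurons, 0.104% ± 0.047 in LD-high and 0.0751% ± 0.0175 in LD-low. The family's summed level was 2701 ± 46 per kb in LD-high and 2582 ± 159 in LD-low. Each of these differences in mean was smaller than the larger SD of its 2 groups. The shares rest on transcript lengths, and that of Acsl1 would be smaller if all exons were used.

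**Figure D3:**
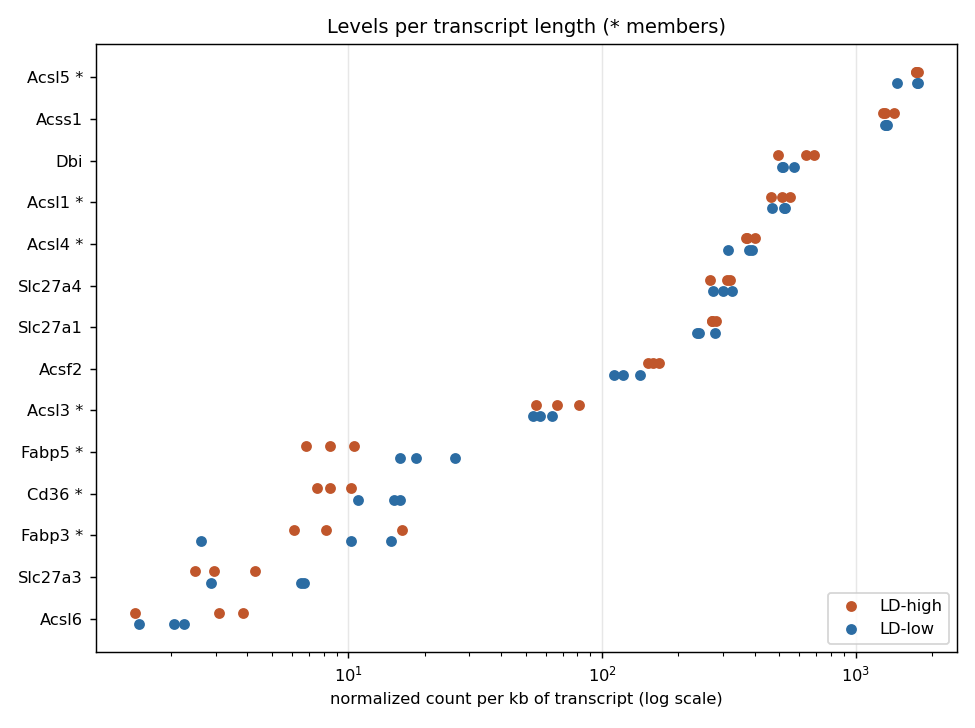
Normalized count per kb of transcript on a log scale, 1 point per library, LD-high drawn above LD-low, for the 7 listed members (asterisks) and 7 other genes of fatty acid uptake, binding and activation. Acsl5 leads with a mean of 1740 in LD-high, and the group means of Fabp5, Cd36 and Fabp3 lie between 8.61 and 20.3.

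The other genes of fatty acid handling came from 10 pathway lists, and 4 of their 101 tested genes passed the test. That is 3.96%, near the 3.36% of all genes tested, so the count is not a result about these lists, and the 4 are given as single genes. All 4 were lost in limma with no mean-variance trend, which called 15 genes in all, and all 4 passed edgeR and DESeq2. Of 9 tested uptake genes, Lpl fell and 8 stayed short of the threshold. Their median log2 change was 0.00, against -0.01 over all genes tested. Lpl, whose secreted lipase frees fatty acids from lipoproteins outside the cell, had 669, 907 and 790 normalized counts in LD-high libraries, against 1224, 2365 and 1286 in LD-low libraries. The groups did not overlap, and the log2 change was -0.99 ± 0.19 (SE; limma adjusted p = 0.0157), which was not past the threshold without LD-high replicate 3 (adjusted p = 0.0571). Neutrophil markers and the summed monocyte markers, given below with Cd36 and Fabp5, were also lower in LD-high, and their part in the Lpl values was not tested. Cav2, a caveolar coat gene, came next by p with 0.33 ± 0.11 (adjusted p = 0.121), and Lipa, the lysosomal acid lipase, was the most abundant per kb with 0.09 ± 0.09 (0.015 to 0.19 without 1 library). The transport proteins Slc27a1 (0.13 ± 0.10) and Slc27a4 (0.00 ± 0.10), which bring in and activate fatty acids, were chosen after seeing their values.

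Acyl-CoA binding proteins hold activated fatty acids after the ACSL step. Their list had 7 tested genes: Dbi, Acbd3, Acbd4, Acbd5 and Acbd6, and also the peroxisomal Hsd17b4 and Scp2. Only these last 2 rose past the threshold. Dbi and the Acbd genes, the other 5, stayed short of it (limma adjusted p from 0.519 to 0.999). The median was 0.14 and 7 of 7 lay above 0, where 48.7% of all genes tested did. Acbd3 (0.00019) and Acbd4 (0.0020) were barely above it. With equal totals it was 5 of 7, where 4622 of all 11624 genes lay above 0, and with TMM factors it was also 5 of 7. Hsd17b4, the peroxisomal multifunctional enzyme of very-long-chain oxidation, averaged 6366 ± 529 normalized counts in LD-high and 4816 ± 171 in LD-low (SD, n = 3 each), which is a log2 change of 0.40 ± 0.07 (SE; limma adjusted p = 0.0125). Scp2, a peroxisomal sterol carrier and thiolase, averaged 2594 ± 38 in LD-high and 2104 ± 51 in LD-low, which is a log2 change of 0.30 ± 0.07 (adjusted p = 0.0308). Hsd17b4 was lost without LD-low replicate 2 and without LD-low replicate 3 (adjusted p = 0.0522 and 0.069), and Scp2 in all 6 fits that left out 1 library (adjusted p from 0.0501 to 0.119), with equal totals (0.0591) and with quantile normalization (0.0547). Both act in peroxisomal oxidation, so their rise does not describe Dbi or the Acbd genes. Choroid plexus markers moved in the same direction: 2 of 4 tested rose, against 1.53% of all genes tested. The 8 markers summed to 714.5 to 2229 normalized counts in LD-high and 118 to 743 in LD-low. Most of that was Ttr, whose groups overlapped, and the other 7 summed to 88.5 to 428 in LD-high and 23.8 to 106 in LD-low. Oligodendrocyte markers summed to 5453 to 6013 in LD-high and 4648 to 4896 in LD-low, with 0 of 5 tested past limma. The part of either list in these values was not tested.

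Of 12 tested genes that build or remodel acyl chains, Acly rose and 11 stayed short of the threshold (median 0.07). Acly, which makes cytosolic acetyl-CoA from citrate, averaged 13352 ± 475 normalized counts in LD-high and 10486 ± 775 in LD-low (SD, n = 3 each), which is a log2 change of 0.35 ± 0.07 (SE; limma adjusted p = 0.0181). It was lost without LD-high replicate 3, without LD-low replicate 2 and without LD-low replicate 3 (adjusted p = 0.0734, 0.0758 and 0.0883). The desaturase gene Scd2 had 0.30 ± 0.08 (adjusted p = 0.0544), which DESeq2 called, and the reductase gene Tecr was the most abundant per kb of these genes with 0.10 ± 0.07.

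The remaining lists had no gene past limma or edgeR over all genes. Of 14 tested partners and palmitoylation genes of CD36, 5 had an unadjusted limma p under 0.05, where 19.8% of all genes tested did, and the smallest p belonged to Lypla1, a thioesterase that removes palmitate from proteins (0.30 ± 0.08, adjusted p = 0.0543), and to the tetraspanin Cd9 (0.26 ± 0.08, adjusted p = 0.0861). DESeq2 called both of these and no other gene of the list. The most abundant per kb was the tetraspanin Cd81 (0.12 ± 0.08), and the list's median was 0.06. Among 7 other acyl-CoA synthetases the median was 0.13, with 3 of the 7 at an unadjusted p under 0.05 (19.8% of all genes) and 0 called by DESeq2. Acsf2, a mitochondrial enzyme, had 0.36 ± 0.12 (adjusted p = 0.118), Aacs, which activates acetoacetate, had -0.24 ± 0.10 (adjusted p = 0.219), and the acetate-activating Acss1, the most abundant per kb, had 0.02 ± 0.07. The largest difference, singled out after its values were seen, was that of Acsbg1, a synthetase for very-long-chain acids known from astrocytes and neurons. It had 14.2, 15.7 and 11.7 normalized counts in LD-high libraries, against 6.32, 0 and 7.43 in LD-low libraries, and met the filter only through LD-high. Its log2 change was 1.90 ± 0.87 (adjusted p = 0.239). Astrocyte markers did not move one way beside it. Slc1a3 averaged 8463 ± 499 in LD-high and 7183 ± 685 in LD-low (SD, n = 3 each; adjusted p = 0.107), and the other 7 of the list summed to 65.0 to 116 in LD-high and 81.7 to 114 in LD-low. Among them Aqp4 was at 0 in every LD-high library and Gfap averaged 5.27 ± 4.29 in LD-high and 14.4 ± 4.8 in LD-low. Their part in the Acsbg1 values was not tested.

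The carnitine shuttle brings acyl groups into mitochondria, though not every gene of its list acts in that step. All 7 tested genes of the list lay above 0 with a median of 0.09, where 48.7% of all genes tested lay above 0. The 7 also did so with equal totals (4622 of all 11624 genes) and after quantile normalization (6097 of all 11624). None had an unadjusted p under 0.05. Slc25a20, the carrier itself, had 0.16 ± 0.12, Cpt1a 0.11 ± 0.08 and Crot, the peroxisomal transferase and most abundant per kb, 0.09 ± 0.07. Of 11 acyl-CoA thioesterases, 1 had an unadjusted p under 0.05 and the median was 0.13; Acot9 had 0.23 ± 0.11 and the lysosomal Ppt1 0.13 ± 0.07. DESeq2 called 0 genes of either list.

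For 16 tested transcription factors of fatty acid genes the median was -0.08. Of the 16, 11 lay below 0, where 5962 of all 11624 genes tested did. An unadjusted limma p under 0.05 was found for 4 of the 16, against 19.8% of all genes. The coactivator Ncoa2 had 0.29 ± 0.09 (adjusted p = 0.0779; the only one called by DESeq2), Tfe3, a regulator of lysosomal genes, 0.18 ± 0.07 (adjusted p = 0.157), and the carbohydrate-sensing factor Mlxipl -0.24 ± 0.10 (adjusted p = 0.178; -0.34 to -0.11 without 1 library). Mlxipl was the most abundant per kb among those with a transcript length, which Tfe3 and Tfeb lacked. Among the PPAR genes, named after their values were seen, Ppard had 177 ± 9 normalized counts in LD-high and 228 ± 25 in LD-low (SD, n = 3 each; log2 change -0.36 ± 0.16, adjusted p = 0.216), and Ppara was at or below 4.33 in every library and was not tested.

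Acsl4 feeds polyunsaturated acyl-CoA into membrane lipids, and of 18 tested genes of that use and of ferroptosis, a death by lipid peroxidation, 0 passed, with a median of 0.06 and 0 at an unadjusted p under 0.05, nor did DESeq2 call any. The cystine importer gene Slc7a11 had 0.63 ± 0.36 (adjusted p = 0.348; 0.25 without LD-low replicate 2 and 0.96 without LD-low replicate 3) and the ferritin gene Ftl1, the most abundant per kb, 0.11 ± 0.07. Lpcat3 and Gpx4, the acyltransferase and the peroxidase usually named with ACSL4 and named here after their values were seen, had -0.02 ± 0.07 and 0.13 ± 0.08. The list of other intracellular lipid-binding proteins had no gene that was tested.

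**Figure D4:**
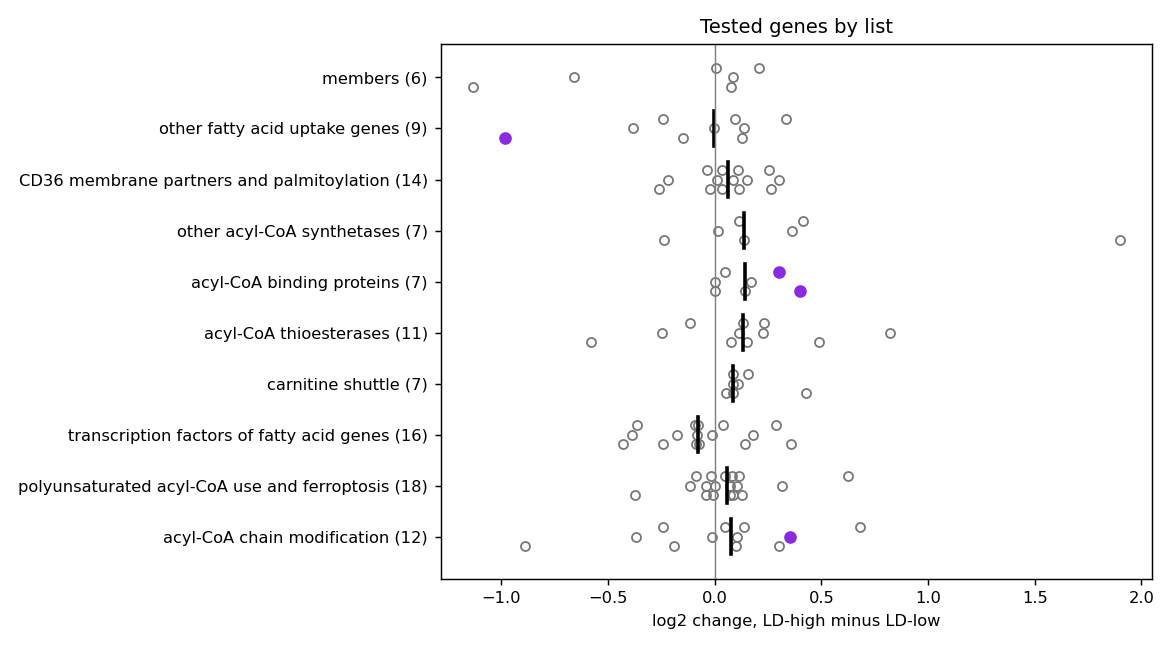
Log2 change, LD-high minus LD-low, of every tested gene of the members and of 9 pathway lists, with the number tested in brackets; filled points have an adjusted p under 0.05 and the bar is a list's median. The called genes are Lpl at -0.99, Scp2 at 0.30, Acly at 0.35 and Hsd17b4 at 0.40.

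Cells other than microglia also express Cd36 and the FABP genes, so their markers were read beside Cd36 and Fabp5. All 7 neutrophil markers analysed of 10 were at 0 in every LD-high library, where 0 reads allow up to 2.23 to 5.01 normalized counts, and they summed to 1222 to 4563 in LD-low libraries. Of the 6 tested, all fell, against 1.82% of all genes tested. These 6 met the filter only through LD-low libraries. A gene at 0 in LD-high can enter the test in that direction alone, so the count adds nothing to the values. Monocyte markers summed to 111 to 130 normalized counts in LD-high and 163 to 208 in LD-low (6 of 7 analysed), and 0 of 2 tested passed. Most of the sum was Ccr2, whose groups overlapped (limma adjusted p = 0.305). The other 5 overlapped too, with sums of 3.34 to 32.5 in LD-high and 22.5 to 72.5 in LD-low. Ly6c2 and Vcan were among those at 0 in all LD-high libraries, but Vcan was at or below 4.33 in every LD-low library. The 9 border-associated macrophage markers summed to 16990 to 22421 in LD-high and 18256 to 19932 in LD-low, but nearly all of that was Stab1 (18965 ± 2705 in LD-high, 18709 ± 766 in LD-low; SD, n = 3 each). The other 8 summed to 167 to 416 normalized counts in LD-high and 254 to 557 in LD-low. Of the 8 tested markers of the list, 7 had log2 changes below 0, where 5962 of all 11624 genes tested did. Their median was -0.52, and 0 passed the test. Folr2 (24.2 ± 8.6 in LD-high, 53.6 ± 20.5 in LD-low) and Cbr2 (14.2 ± 8.0 in LD-high, 33.4 ± 7.4 in LD-low; SD, n = 3 each) lay lower in LD-high with no overlap, though not past the test (adjusted p = 0.129 and 0.17). Every other marker of the list overlapped between the groups, Mrc1 (log2 change -0.04) among them. Of all genes tested, 24.3% did not overlap, and 11.7% did not overlap and were lower in LD-high.

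Endothelial markers summed to 4286 to 4726 in LD-high and 4168 to 4662 in LD-low, mostly from Slc2a1 and Pecam1, and 0 of 5 tested passed. Their members went both ways. Flt1 averaged 2.86 ± 2.80 in LD-high and 21.8 ± 2.3 in LD-low (adjusted p = 0.0563), while Kdr averaged 406 ± 39 in LD-high and 310 ± 12 in LD-low (SD, n = 3 each; adjusted p = 0.11). Across replicates 1, 2 and 3 of LD-low, the neutrophil sum was 1222, 1589 and 4563, the monocyte sum 163, 208 and 187, and the sum of the 8 macrophage markers other than Stab1 557, 383 and 254. In the same order Cd36 had 56.8, 54.1 and 39.0 normalized counts and Fabp5 18.2, 26.0 and 15.8. The part of these cells in either value was not tested.

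The genes whose log2 values ran most like those of Fabp5 over the 6 libraries were Klf4 (Pearson's r = 0.990), Mmp23 (0.988) and 4831440E17Rik (0.985). For Acsl5 they were Dhrs3 (0.996), Prpf6 (0.992) and Dusp5 (0.990). They were taken from the 11624 genes tested. These are descriptions over points that share library and group.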

How the data were processed

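RNA from 3 LD-high and 3 LD-low pools was made into Smart-seq libraries and tagmented, per the labels' protocols. Per the submitters' processing notes, together with the series design, the tools were FastQC 0.11.4, STAR 2.5.1b with its gene counts, the mm9 build and DESeq2; annotation, strand setting and gene filter were not given in the sources used here. In the authors' table each gene has a normalized signal, which is its read count over the library's size factor (0.599 to 1.43). Whole reads were recovered from 100% of the values, within 0.01 reads; on these edgeR called 377 genes and DESeq2 729. A count of 3 reads came to 2.11 to 5.01 normalized counts, depending on the library.

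Differences were tested with limma 3.58.1 in R 4.3.3, with a mean-variance trend, on log2(value + 1), for genes with at least 10 in at least 3 libraries. Tests were 2-sided with Benjamini-Hochberg adjustment over 11624 genes, and fold changes on this scale understate those of low genes. Alternatives used edgeR 4.0.16, DESeq2 1.42.0, other scalings, filters, pseudocounts, a replicate block and fits without 1 library. Lengths came from GENCODE vM1 by symbol (12949 genes), and copies from a BLAST search of NCBIM37. The limma script was tested on simulated data. Members and lists were chosen with earlier results of these data known. Named genes are all members; of each list, those past the threshold, the 2 with the smallest p and the most abundant per kb; and the 3 genes most like Acsl5 and Fabp5. Nothing says whether pools share mice, so the p-values measure only how these samples spread, part of which may be technical. Some items are not reported here.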

Additional observations from a re-analysis of the deposited data

How the results depend on the processing

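The count of members called was 0 under all 21 alternatives, and Cd36 and Fabp5 lay below 0 in the 20 that could give them a value. Cd36 ran from -0.82 to -0.48 (adjusted p 0.205 to 0.51) and Fabp5 from -1.28 to -0.86 (adjusted p 0.163 to 0.536). The filter of 50 left no value for either. Acsl1 changed sign with equal totals (-0.036), GC correction (-0.019) and quantile normalization (-0.022), and Acss1 with equal totals (-0.026) and quantile normalization (-0.030). Without 1 library Acsl3 ran from 0.066 to 0.35, Acsl1 from -0.052 to 0.073, Acsl4 from -0.015 to 0.14, Acsl5 from -0.013 to 0.13 and Acss1 from -0.025 to 0.045. The causes were not tested.

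The 390 genes called became 729 with DESeq2, 252 after quantile normalization, 15 in limma with no trend and 52 to 421 without 1 library. The 4 genes called of 101 on the pathway lists became 8 with DESeq2, which called 6.27% of all genes, and 0 with no trend. Without 1 library they became 1 to 4 (1 without LD-high replicate 3, LD-low replicate 2 or LD-low replicate 3). These counts move with the number called over all genes and are not a result about the lists.

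With the replicate number as a block, 1090 of 11624 genes and 11 of the lists' 101 tested genes were called, but no member (Cd36 adjusted p = 0.234, Fabp5 adjusted p = 0.229). With the length correction these counts were 1051 and 11. Deviations from the group mean correlated at 0.161, 0.132 and 0.064 between same-numbered samples. Each sample correlated best with its own number, a hint from the data, not the design. Low read counts limit Fabp3, Fabp5 and Cd36.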
